A study of Mus musculus with 8 samples.

Results

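Spermatogonial markers are genes whose transcripts are used to recognise the mitotic germ cells at the base of the seminiferous tubule. The set described here holds 32 such genes of 21949 genes in the deposited tables, chosen by symbol, with earlier results of these data known. Each gene was represented by its best-covered transcript, the one with the most fragments on average over the 8 libraries. By their known expression, 18 were placed with undifferentiated spermatogonia, 8 with differentiating spermatogonia and 6 with both stages.

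Undifferentiated spermatogonia include the stem cells that maintain the male germ line, and they depend on glial cell line-derived neurotrophic factor (GDNF) from somatic cells, which they sense through the receptor RET and its co-receptor GFRA1. Retinoic acid drives these cells into differentiation, when they take up the receptor tyrosine kinase KIT, and later switches on STRA8, which is needed to begin meiosis. The PIWI protein MIWI, encoded by Piwil1, acts later, in spermatocytes and round spermatids, where it binds PIWI-interacting RNAs.

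Whole testes of C57BL/6 mice at postnatal day 24 were compared between wild-type (WT) and Miwi-null animals, and the labels name no allele for the null. From cleared lysates, total RNA was sequenced and ribosome-protected fragments (RPF, or footprints, the stretches of mRNA shielded by a ribosome) were sequenced separately. Each of the 4 combinations of genotype and assay had 2 libraries, numbered 1 and 2. The labels do not tie a library to an animal, so the p-values below measure the spread between libraries, which may be technical.

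Assigned fragments per library ranged from 11130957 to 15592795 in RNA and from 11662661 to 28334620 in footprints. Piwil1, the gene removed, was at 552 and 533 CPM (counts scaled to a library size of 1000000) in WT RNA and at 3.52 and 2.27 CPM in Miwi-null RNA. In footprints the libraries stood apart in a crossed way: across 10171 genes of at least 10 CPM on average, the difference between WT footprint libraries 1 and 2 ran opposite to that between Miwi-null footprint libraries 1 and 2 (Pearson's r = -0.808), so WT library 1 stood with Miwi-null library 2, which were also the deeper of each pair. The mean RNA insert, per the labels, was 266 and 244.5 bases in WT and 287.6 and 284 bases in Miwi-null, so insert length and genotype cannot be told apart in RNA. The median RNA change over all genes moved with coding length, from -0.38 on the log2 scale in the shortest of 10 equal bins of coding length (median 378 bases) to 0.12 in the longest (median 4728 bases).

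The markers were not equally abundant in WT testes. Per kilobase of coding sequence, the mean WT RNA levels were highest for Uchl1, a deubiquitinating enzyme, at 84.2 ± 2.17 CPM per kilobase (SD, n = 2), and for Id4, an inhibitor of DNA binding enriched in stem cells, at 81.9 ± 11.0. These neighbours did not differ beyond their spread. Dmrt1, a transcription factor of germ and Sertoli cells, followed at 36.6 ± 1.78, and Epcam, an adhesion molecule, at 30.3 ± 3.42. Etv5, a transcription factor downstream of GDNF, at 18.7 ± 1.25, and Crabp1, a retinoic acid-binding protein, at 18.3 ± 2.8, also lay within their spread of each other. Stra8 came next at 15.7 ± 0.252 and Kit at 13.2 ± 0.25 CPM per kilobase. The GDNF receptors were low, with Gfra1 at 2.02 ± 0.218 and Ret at 1.17 ± 0.0543 CPM per kilobase.

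Of the 32 genes, 28 had enough fragments to be tested, and the other 4 were Nanos2, Neurog3, Eomes and Pax7, all markers of undifferentiated cells. Nanos2, an RNA-binding protein of stem cells, had 0 fragments in each of the 4 RNA libraries, where 3 fragments would be 0.201 to 0.262 CPM. Pax7, a transcription factor of rare spermatogonia, had 1 fragment in the 4 RNA libraries together. Neurog3, which marks early progenitors, had 8 and 6 RNA fragments in WT and 2 and 0 in Miwi-null. Eomes, which marks a subset of stem cells, had 7 and 3 in WT and 1 and 0 in Miwi-null. No fold change is given for these genes at such counts, and the results below concern the other 28 unless all 32 are named.

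In RNA most of the tested markers were lower in Miwi-null testes. With edgeR's quasi-likelihood test and a Benjamini-Hochberg adjusted p under 0.05 over 16051 genes, 16 of the 28 fell and 1 rose. Over all genes tested, 37.3% were called in RNA, 20.8% as lower and 16.5% as higher. The median log2 change of the 28 was -0.68, beside -0.07 for all genes tested. In whole-testis RNA, fewer cells of a type and less RNA per cell cannot be told apart. In 24 of the 32 genes both Miwi-null RNA libraries lay below both WT libraries. In 4 they lay above, and in 4 the groups overlapped or tied. Over all genes tested, 43.1% lay below and 34.7% above. The 24 include Neurog3 and Eomes, which were too low to be tested, whereas the shares over all genes are of tested genes only.

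**Figure D1:**
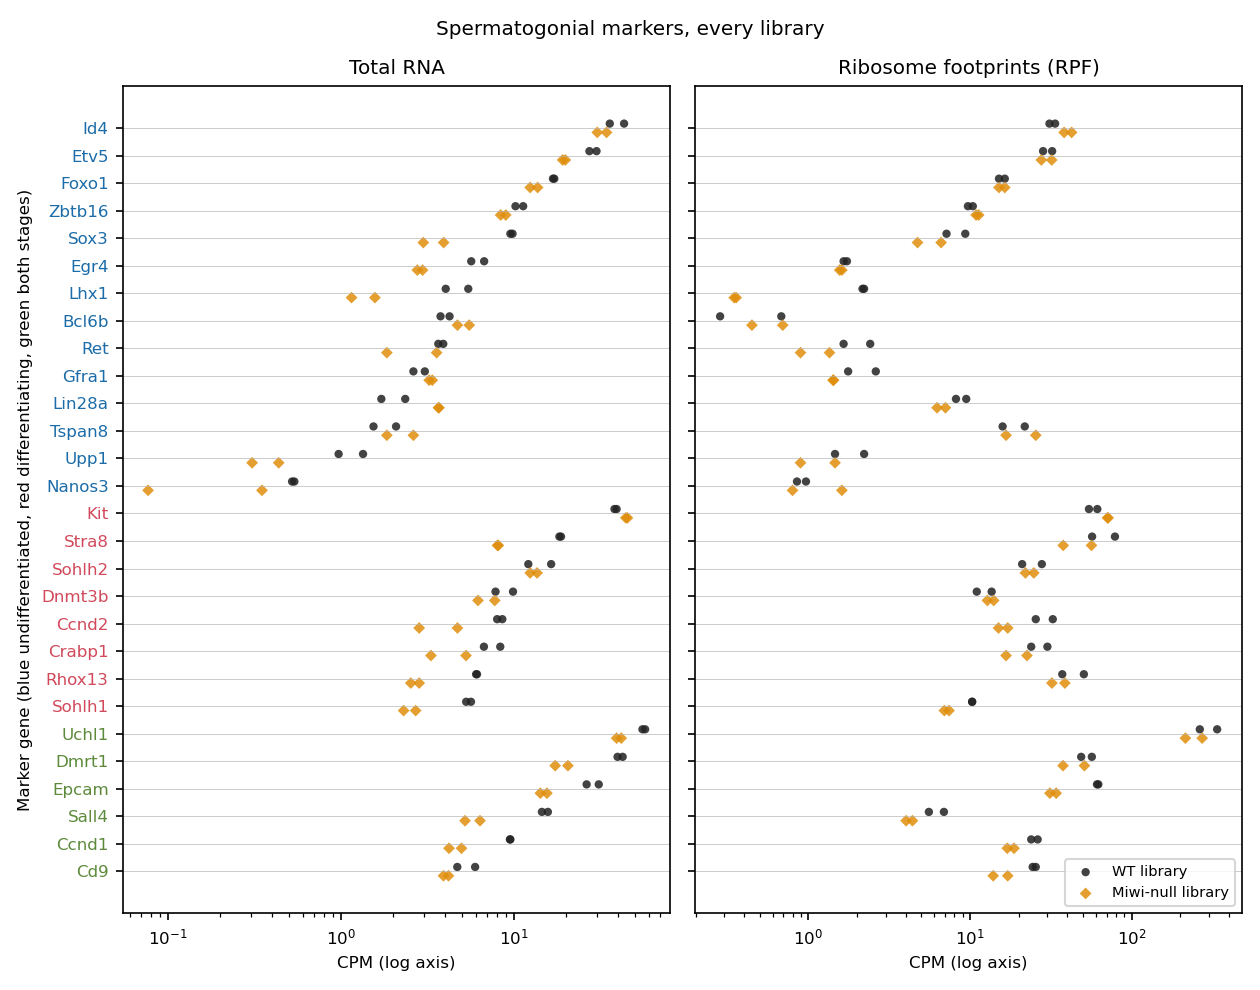
CPM (horizontal, log axis) of the 28 tested markers (vertical, by stage) in RNA (left) and footprints (right), with 1 point per library, black circles for WT and orange diamonds for Miwi-null. Sall4, Stra8, Lhx1 and Sox3 show Miwi-null RNA points well below the WT points, whereas Kit shows them slightly above.

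Among the 8 markers of differentiating spermatogonia, 5 fell in RNA and the other 3 did not pass the test, with a median log2 change of -0.96. Stra8, the retinoic acid-induced gate to meiosis, was at 18.3 and 18.7 CPM in the WT libraries and at 8.12 and 8.02 CPM in the Miwi-null libraries. Its log2 change was -1.19 ± 0.24 (SE, adjusted p = 0.00518). Both Miwi-null libraries were low and the groups did not overlap.

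Sohlh1, a basic helix-loop-helix transcription factor of early differentiation, was at 5.64 and 5.29 CPM in WT and at 2.3 and 2.7 CPM in Miwi-null (log2 change -1.13 ± 0.18, adjusted p = 0.00158). Rhox13, an X-linked homeobox gene, was at 6.04 and 6.11 CPM in WT and at 2.83 and 2.53 CPM in Miwi-null (log2 change -1.17 ± 0.24, adjusted p = 0.00518). For both genes the groups were well separated. Ccnd2, a D-type cyclin, was at 7.99 and 8.56 CPM in WT and at 2.83 and 4.71 CPM in Miwi-null, a log2 change of -1.15 ± 0.25 (adjusted p = 0.00723). Its lower Miwi-null library was library 1, and without that library the adjusted p was 0.0616. Crabp1 was at 8.33 and 6.7 CPM in WT and at 5.28 and 3.31 CPM in Miwi-null, a log2 change of -0.8 ± 0.27 (adjusted p = 0.0494), just inside the threshold and called in 7 of 15 alternative fits.

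Kit did not share this pattern. It was at 39.2 and 38.1 CPM in WT RNA and at 44.3 and 45.3 CPM in Miwi-null RNA, with a log2 change of 0.21 ± 0.1 (adjusted p = 0.131). The Miwi-null libraries were the higher ones without overlap, but the difference did not pass the test. Kit was among the members also known from somatic cells, with Dmrt1, Ccnd1, Ccnd2, Cd9, Uchl1, Etv5 and Foxo1. The part of somatic cells in the Kit level was not tested. Sohlh2, the partner of Sohlh1, was at 16.4 and 12.1 CPM in WT and 13.6 and 12.4 CPM in Miwi-null, and these ranges overlapped (log2 change -0.13 ± 0.2). Dnmt3b, a de novo DNA methyltransferase, was at 9.87 and 7.82 CPM in WT and 7.74 and 6.19 CPM in Miwi-null (log2 change -0.34 ± 0.2, adjusted p = 0.203). The partners Sohlh1 and Sohlh2 thus had RNA log2 changes of -1.13 and -0.13, and the difference between them was not tested.

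The stretches around the start sites of Sohlh1, Stra8, Kit and Epcam are printed to set 3 markers that fell in RNA beside Kit, which did not pass. They are RefSeq windows of GRCm38.p6, 250 bases before to 50 bases after an annotated start, read 5′ to 3′ on the gene's strand, at chr2:25847199-25847498 (- strand) for Sohlh1, chr6:34920698-34920997 (+ strand) for Stra8, chr5:75574737-75575036 (+ strand) for Kit and chr17:87635729-87636028 (+ strand) for Epcam. Capitals mark CANNTG (the E-box bound by basic helix-loop-helix factors), AGGTCA (a half-site of retinoic acid receptors and other nuclear receptors) and GGGCGG (the GC box), on either strand.
Sohlh1: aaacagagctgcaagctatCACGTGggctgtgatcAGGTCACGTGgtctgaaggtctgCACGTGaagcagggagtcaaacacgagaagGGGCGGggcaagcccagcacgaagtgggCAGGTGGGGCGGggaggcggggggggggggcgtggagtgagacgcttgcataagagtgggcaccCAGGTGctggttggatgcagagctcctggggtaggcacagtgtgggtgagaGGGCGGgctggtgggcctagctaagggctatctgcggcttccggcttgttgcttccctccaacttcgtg
Stra8: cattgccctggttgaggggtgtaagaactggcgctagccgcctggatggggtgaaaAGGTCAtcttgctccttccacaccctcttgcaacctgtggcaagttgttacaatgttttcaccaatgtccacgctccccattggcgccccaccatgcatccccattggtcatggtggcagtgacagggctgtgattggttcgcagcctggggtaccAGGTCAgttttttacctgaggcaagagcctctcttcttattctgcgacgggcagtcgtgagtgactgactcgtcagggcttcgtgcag
Kit: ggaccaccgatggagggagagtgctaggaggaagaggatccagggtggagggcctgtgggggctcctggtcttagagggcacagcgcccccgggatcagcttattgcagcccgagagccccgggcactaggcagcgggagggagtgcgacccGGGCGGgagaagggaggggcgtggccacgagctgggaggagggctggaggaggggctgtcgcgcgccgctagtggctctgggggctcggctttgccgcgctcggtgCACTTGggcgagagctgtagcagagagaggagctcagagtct
Epcam: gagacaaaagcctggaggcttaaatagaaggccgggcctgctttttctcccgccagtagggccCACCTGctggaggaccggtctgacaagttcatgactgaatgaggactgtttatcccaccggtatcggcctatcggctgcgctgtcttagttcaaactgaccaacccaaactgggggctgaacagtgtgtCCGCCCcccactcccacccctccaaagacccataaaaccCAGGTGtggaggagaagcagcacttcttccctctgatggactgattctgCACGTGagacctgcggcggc
The Sohlh1 window held 5 E-boxes, 1 AGGTCA and 3 GC boxes, with 2 bases shared between an AGGTCA and an E-box. The Stra8 window held 2 AGGTCA half-sites and neither of the other motifs, and the Kit window held 1 E-box and 1 GC box. The Epcam window held 3 E-boxes and 1 GC box. Of 32851 RefSeq windows of the same length, 72.3% held CANNTG, 16.3% AGGTCA and 35.7% GGGCGG. Of the 24 markers with a window, 14 held CANNTG, 4 held AGGTCA (Nanos2, Sohlh1, Stra8 and Tspan8) and 14 held GGGCGG. The TATA motif TATAAA was also searched and was in 13.6% of all windows and in 1 of the 24 (Nanos2). For genes with several annotated starts, such as Kit, the first in the table was used. The Stra8 window lies inside the RefSeq gene, whose span begins further upstream, at chr6:34920163. A match is a description of the letters and not of a bound site.

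All 6 markers shared by both stages had Miwi-null RNA below WT without overlap, and 5 of them fell by the test, with a median log2 change of -1.0. Sall4, a zinc finger transcription factor needed for spermatogonial maintenance, was at 14.5 and 15.7 CPM in WT and at 5.21 and 6.36 CPM in Miwi-null (log2 change -1.39 ± 0.17, adjusted p = 0.000479). Dmrt1, which holds spermatogonia back from meiosis, was at 42.5 and 39.7 CPM in WT and at 20.5 and 17.3 CPM in Miwi-null (log2 change -1.12 ± 0.17, adjusted p = 0.0013). Their Miwi-null levels were 0.382 and 0.461 of WT.

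Epcam was at 26.3 and 30.9 CPM in WT RNA and at 14.2 and 15.5 CPM in Miwi-null RNA (log2 change -0.95 ± 0.12, adjusted p = 0.00061). Ccnd1, the other D-type cyclin of the set, was at 9.47 and 9.53 CPM in WT and at 4.21 and 4.97 CPM in Miwi-null (log2 change -1.05 ± 0.16, adjusted p = 0.00111). Both were low in each Miwi-null library. Uchl1 was at 55.3 and 57.3 CPM in WT and at 39.2 and 41.7 CPM in Miwi-null, a smaller log2 change of -0.48 ± 0.16 (adjusted p = 0.0401) that was called in 7 of 15 alternative fits. Cd9, a tetraspanin of the cell surface, had 4.7 and 5.96 CPM in WT and 3.91 and 4.18 CPM in Miwi-null, and its log2 change of -0.39 ± 0.2 did not pass (adjusted p = 0.146).

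Markers of undifferentiated spermatogonia were more mixed in RNA: of the 14 tested, 6 fell and 1 rose, and the median change was -0.44 on the log2 scale. Lhx1, a LIM homeobox gene induced by GDNF, was at 4.03 and 5.44 CPM in WT and at 1.15 and 1.57 CPM in Miwi-null (log2 change -1.8 ± 0.27, adjusted p = 0.00114). Sox3, an X-linked transcription factor of progenitors, was at 9.81 and 9.53 CPM in WT and at 2.99 and 3.92 CPM in Miwi-null (log2 change -1.49 ± 0.24, adjusted p = 0.00171). Egr4, an early growth response factor, was at 6.72 and 5.66 CPM in WT and at 2.76 and 2.96 CPM in Miwi-null (log2 change -1.12 ± 0.19, adjusted p = 0.00258). In all 3 genes the Miwi-null libraries lay below the WT libraries.

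Etv5 was at 30.0 and 27.3 CPM in WT RNA and at 19.1 and 19.8 CPM in Miwi-null RNA (log2 change -0.56 ± 0.13, adjusted p = 0.0102). Upp1, uridine phosphorylase, was at 1.34 and 0.968 CPM in WT and at 0.306 and 0.436 CPM in Miwi-null (log2 change -1.64 ± 0.52, adjusted p = 0.0365). The raw Upp1 counts were 20 and 13 fragments in WT and 4 and 5 in Miwi-null. Both genes were separated between the groups, but the Etv5 call was lost without WT RNA library 1 or either Miwi-null RNA library, and the Upp1 call without any 1 of the RNA libraries and with DESeq2. Foxo1, a transcription factor restrained by AKT signalling in stem cells, was at 16.8 and 17.1 CPM in WT and at 12.4 and 13.7 CPM in Miwi-null. Its log2 change of -0.38 ± 0.13 (adjusted p = 0.0461) stayed past the threshold in only 2 of 15 alternative fits. Zbtb16, the zinc finger repressor PLZF, had 11.3 and 10.2 CPM in WT and 8.96 and 8.37 CPM in Miwi-null and did not pass (log2 change -0.31 ± 0.14, adjusted p = 0.112). Id4 had 43.3 and 35.8 CPM in WT and 30.3 and 34.3 CPM in Miwi-null and did not pass either (log2 change -0.29 ± 0.13, adjusted p = 0.113).

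The GDNF receptors did not pass in RNA. Gfra1 was at 2.62 and 3.05 CPM in WT and at 3.37 and 3.23 CPM in Miwi-null (log2 change 0.22 ± 0.25). Ret was at 3.9 and 3.65 CPM in WT and at 1.84 and 3.57 CPM in Miwi-null, so that 1 of the Miwi-null libraries was low and the other close to WT (log2 change -0.5 ± 0.34). Bcl6b, a GDNF-responsive repressor, and Tspan8, a tetraspanin of stem cells, had log2 changes of 0.36 ± 0.27 and 0.29 ± 0.4. Nanos3, an RNA-binding protein, was at 0.0766 to 0.537 CPM in the RNA libraries and had a log2 change of -1.34 ± 0.76 (adjusted p = 0.2).

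Lin28a, an RNA-binding protein that blocks let-7 maturation, was the 1 marker that rose in RNA. It was at 2.35 and 1.71 CPM in WT and at 3.68 and 3.66 CPM in Miwi-null (log2 change 0.84 ± 0.23, adjusted p = 0.0199). The groups did not overlap, at raw counts of 35 and 23 fragments in WT and 48 and 42 in Miwi-null. The call was lost without WT RNA library 2 and without either Miwi-null RNA library.

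The RNA counts rested in part on each of the RNA libraries. Fewer markers were called without any 1 of them, of either genotype. With 1 RNA library left out, the median log2 change of the differentiating markers ran from -1.02 to -0.8. That of the undifferentiated markers ran from -0.52 to -0.33. The calls of 10 markers held in all 15 alternative fits: Lhx1, Sox3, Egr4, Sohlh1, Rhox13, Stra8, Sall4, Dmrt1, Epcam and Ccnd1.

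In footprints, with the libraries taken as labelled and no term for the crossed likeness, 7 of the 28 were called, each lower, where 25.4% of all genes tested were called, 13.3% as lower and 12.0% as higher. The median log2 change was -0.35 for the 28, -0.38 for the differentiating markers, -0.52 for those of both stages and -0.06 for the undifferentiated ones, beside -0.00 for all genes tested. In 16 of the 32 genes both Miwi-null footprint libraries lay below both WT ones, in 3 above, and in 13 the groups overlapped or tied. Of all genes tested, 29.3% lay below and 28.3% above. The 16 include the untested Eomes, at 5 and 4 footprints in WT and 0 and 0 in Miwi-null. The number of footprint calls depended on how the crossed libraries were treated: with a term that pairs them crosswise, chosen after seeing the data, 18 of the 28 were called in footprints (16 lower and 2 higher), beside 19 in RNA and 11 in TE (the footprint share over the RNA share, described below). The same term raised the calls over all genes too, to 8183 of 16051 in footprints, 9103 in RNA and 6540 in TE.

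**Figure D2:**
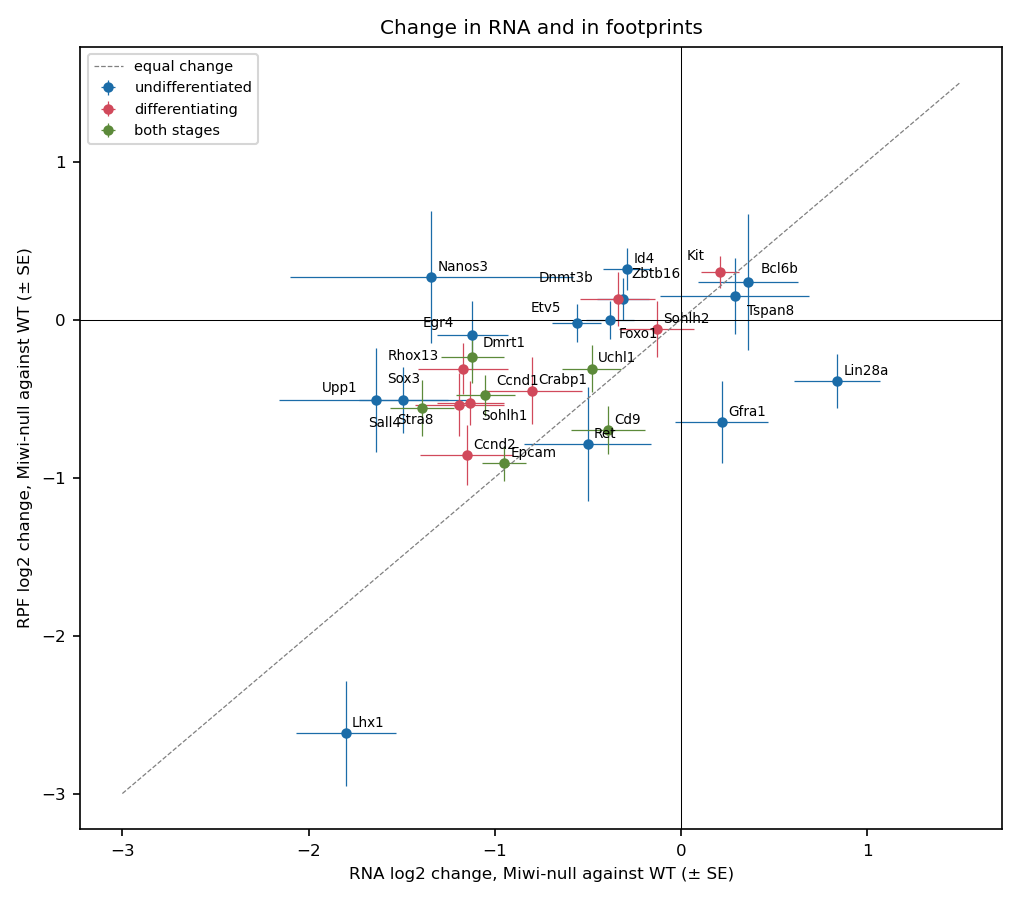
Log2 change in footprints (vertical axis) against log2 change in RNA (horizontal axis), Miwi-null against WT, for the 28 tested markers, with SE bars and colours for the stage. Lhx1 lies at -1.8 in RNA and -2.62 in footprints, and most other markers lie above the dashed line of equal change.

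Lhx1 fell furthest of the 28 in footprints. Its footprint level was 2.21 and 2.16 CPM in WT and 0.357 and 0.347 CPM in Miwi-null (log2 change -2.62 ± 0.33, adjusted p = 0.000572). The raw counts were low, at 65 and 38 footprints in WT and 4 and 10 in Miwi-null. Epcam footprints were at 62.2 and 61.0 CPM in WT and at 31.2 and 34.1 CPM in Miwi-null (log2 change -0.91 ± 0.11, adjusted p = 0.000581). Both genes thus fell in RNA and in footprints, and these were the 2 footprint calls that held in all 15 alternative fits.

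Among the cyclins, Ccnd2 footprints were at 25.5 and 32.5 CPM in WT and at 17.1 and 15 CPM in Miwi-null (log2 change -0.86 ± 0.19, adjusted p = 0.0125). Ccnd1 footprints were at 23.9 and 26.2 CPM in WT and at 17.0 and 18.7 CPM in Miwi-null (log2 change -0.48 ± 0.13, adjusted p = 0.0227). Neither group overlapped the other. Cd9, which did not pass in RNA, fell in footprints from 24.4 and 25.5 CPM to 17.1 and 13.9 CPM (log2 change -0.7 ± 0.15, adjusted p = 0.00934). Sohlh1 footprints were at 10.3 and 10.3 CPM in WT and at 7.41 and 6.93 CPM in Miwi-null (log2 change -0.53 ± 0.14, adjusted p = 0.0239). Sall4 footprints were at 6.89 and 5.56 CPM in WT and at 4.02 and 4.4 CPM in Miwi-null (log2 change -0.56 ± 0.18, adjusted p = 0.0473), a call kept in 3 of 15 alternative fits.

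Several markers with lower RNA did not pass in footprints. Stra8 footprints were at 56.9 and 78.8 CPM in WT and at 56.4 and 37.7 CPM in Miwi-null (log2 change -0.54 ± 0.2, adjusted p = 0.0869). Here WT library 1 and Miwi-null library 1 were nearly level. The pairs that stood together over all genes were WT library 1 with Miwi-null library 2 and WT library 2 with Miwi-null library 1. Each of those pairs had the lower value in Miwi-null. The pairing was chosen after seeing these data and is not in the labels. The order within those pairs is therefore a description, given only in this paragraph, and not a test. Rhox13 was at 37.2 and 50.6 CPM in WT and at 38.6 and 32.1 CPM in Miwi-null (log2 change -0.31 ± 0.16, adjusted p = 0.195), with overlap by label and the same order within those pairs. Dmrt1 was at 56.7 and 48.7 CPM in WT and at 37.6 and 51.0 CPM in Miwi-null, which overlapped by label and were lower in Miwi-null within both of those pairs (log2 change -0.24 ± 0.16, adjusted p = 0.302). Uchl1 was at 264 and 338 CPM in WT and at 273 and 215 CPM in Miwi-null, again with overlap by label and lower values in Miwi-null within both pairs (log2 change -0.31 ± 0.15). That order did not hold for every marker with overlap by label. From WT to Miwi-null within those pairs, Tspan8 went from 15.9 to 16.7 and from 21.8 to 25.5 CPM. Dnmt3b went from 11.0 to 12.8 and from 13.6 to 14.0 CPM. Bcl6b was also higher in Miwi-null within both pairs, and Foxo1 was level.

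The remaining footprint values of the undifferentiated markers sat close to WT or were imprecise. Etv5 was at 32.2 and 28.3 CPM in WT and 27.6 and 32 CPM in Miwi-null (log2 change -0.02 ± 0.12), and Foxo1 at 16.4 and 15.1 CPM in WT and 15.1 and 16.4 CPM in Miwi-null (log2 change 0.00 ± 0.12). Gfra1 was at 2.61 and 1.76 CPM in WT and at 1.43 and 1.42 CPM in Miwi-null, lower without overlap but short of the threshold (log2 change -0.65 ± 0.26, adjusted p = 0.1). Id4 was at 33.6 and 31.0 CPM in WT and at 38.2 and 42.5 CPM in Miwi-null, higher without overlap and also short of it (log2 change 0.32 ± 0.13, adjusted p = 0.102). Kit was at 54.4 and 61.3 CPM in WT and at 71.5 and 70.9 CPM in Miwi-null (log2 change 0.3 ± 0.1, adjusted p = 0.0553). Kit was therefore the higher in Miwi-null in all libraries of both assays, and passed in neither in the main fit. Alternative fits called Kit higher in 3 of 15 cases in RNA and in 1 of 15 in footprints.

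Sox3 footprints were at 9.34 and 7.15 CPM in WT and at 4.73 and 6.62 CPM in Miwi-null, lower without overlap and short of the threshold (log2 change -0.51 ± 0.21, adjusted p = 0.111), although its RNA fell. Egr4 footprints were at 1.73 and 1.65 CPM in WT and at 1.61 and 1.56 CPM in Miwi-null (log2 change -0.1 ± 0.22). Zbtb16 was at 10.4 and 9.7 CPM in WT and 11.3 and 10.9 CPM in Miwi-null (log2 change 0.13 ± 0.13). Egr4 and Zbtb16 footprints were thus near WT, with changes smaller than their SE or equal to it. Crabp1 was at 30.1 and 23.9 CPM in WT and at 16.7 and 22.5 CPM in Miwi-null (log2 change -0.45 ± 0.21, adjusted p = 0.158). Ret, at 2.41 and 1.65 CPM in WT and 0.893 and 1.35 CPM in Miwi-null, had a log2 change of -0.79 ± 0.36 (adjusted p = 0.146). Both were lower in Miwi-null without overlap and did not pass. Tspan8, Bcl6b, Nanos3, Upp1, Sohlh2 and Dnmt3b had footprint log2 changes between -0.51 and 0.27, and none of these 6 passed.

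The footprint calls rested on few libraries. Without Miwi-null footprint library 2, 2 markers were called (Lhx1 and Epcam), and Ccnd2 and Cd9 then had adjusted p of 0.0786 and 0.0792. The Sohlh1 call held in 8 and the Ccnd1 call in 10 of 15 alternative fits, and both were lost with DESeq2.

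Translational efficiency (TE), the footprint share of a gene over its RNA share, was tested as the interaction of genotype and assay. Of all genes tested 14.9% were called, 7.36% as higher and 7.56% as lower in Miwi-null, and among the 28 markers 1 was higher (Dmrt1) and 1 lower (Lin28a). The TE change was above 0 in 21 of the 28, a count that was not made over all genes. Its median was 0.41 in the undifferentiated, 0.41 in the differentiating and 0.37 in the shared markers, beside 0.04 for all genes tested. The undifferentiated median was 0.16 without members also known from somatic cells, and 0.27 with no TMM, where that of all genes was -0.10. The medians describe genes that were mostly lower in RNA, and TE shares that RNA value. A TE median of like size was not particular to the 28. It was 0.37 for Sertoli, 0.39 for Leydig and 0.6 for peritubular myoid markers. Macrophage markers had 0.12, spermatocyte 0.2, endothelial -0.46, round spermatid -0.59 and elongating spermatid -2.95. For the 19 other spermatogonial genes tested, described below, it was -0.12.

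Dmrt1 had a TE log2 change of 0.87 ± 0.23 (adjusted p = 0.0386), from RNA that fell by 1.12 on the log2 scale and footprints whose groups overlapped by label. The call was lost with library totals in place of TMM scaling and without any 1 of the RNA libraries. Lin28a had a TE log2 change of -1.23 ± 0.28 (adjusted p = 0.0236). Its footprints were at 8.18 and 9.47 CPM in WT and at 6.25 and 7.04 CPM in Miwi-null (log2 change -0.39 ± 0.17, adjusted p = 0.124), lower without overlap, while its RNA was higher. This call too was lost without any 1 of the RNA libraries. Over the transcript models of Lin28a, footprints and RNA fragments were counted in different proportions: its 251-base coding model took 178 and 148 WT footprints, beside 241 and 167 in the 627-base model, but only 1 and 1 WT RNA fragments, beside 35 and 23. The part of this in the TE values was not tested.

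In the authors' deposited table, which marks a TE change from 1.2-fold on without a replicate test, 14 of the 32 markers were marked up, 4 down and 6 unchanged, and 8 were listed as unknown. The shares so marked over all genes were not counted, so these numbers do not set the markers apart from other genes.

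Within WT testes, footprint shares were set against RNA shares for each marker; the difference between stages was not tested. All 8 differentiating markers had a higher footprint than RNA share in WT (median log2 ratio 1.36), as called by the same edgeR fit, and 7 of 8 were called with DESeq2, with counts summed over transcripts, with the 4 WT libraries alone, with a replicate block, and without WT RNA library 2 or WT footprint library 2. In the edgeR fit 74.2% of all genes tested were called, 37.7% as higher and 36.4% as lower. Of the 14 undifferentiated markers, 2 were higher and 4 lower (median -0.16), and of the 6 shared ones 4 were higher and 1 lower. A WT median like that of the differentiating markers was also seen in other lists. It was 1.42 for niche ligands (8 of 9 higher) and 1.36 for meiotic entry genes (11 of 17 higher), both described below. Peritubular myoid markers had 1.28 and Leydig markers 1.15. Sertoli markers had 0.6, the other spermatogonial genes 0.23 and endothelial markers -0.62. The differentiating markers were again 8 of 8 higher in Miwi-null (median 1.80), where 75.5% of all genes were called, 38.4% as higher and 37.1% as lower. Of the undifferentiated markers, 8 were higher and 5 lower there (median 0.34), and of the shared ones 5 were higher. The 8 higher calls became 3 without Miwi-null RNA library 1, 4 without Miwi-null footprint library 2, and 5 with counts summed over transcripts or with the 4 Miwi-null libraries alone.

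**Figure D3:**
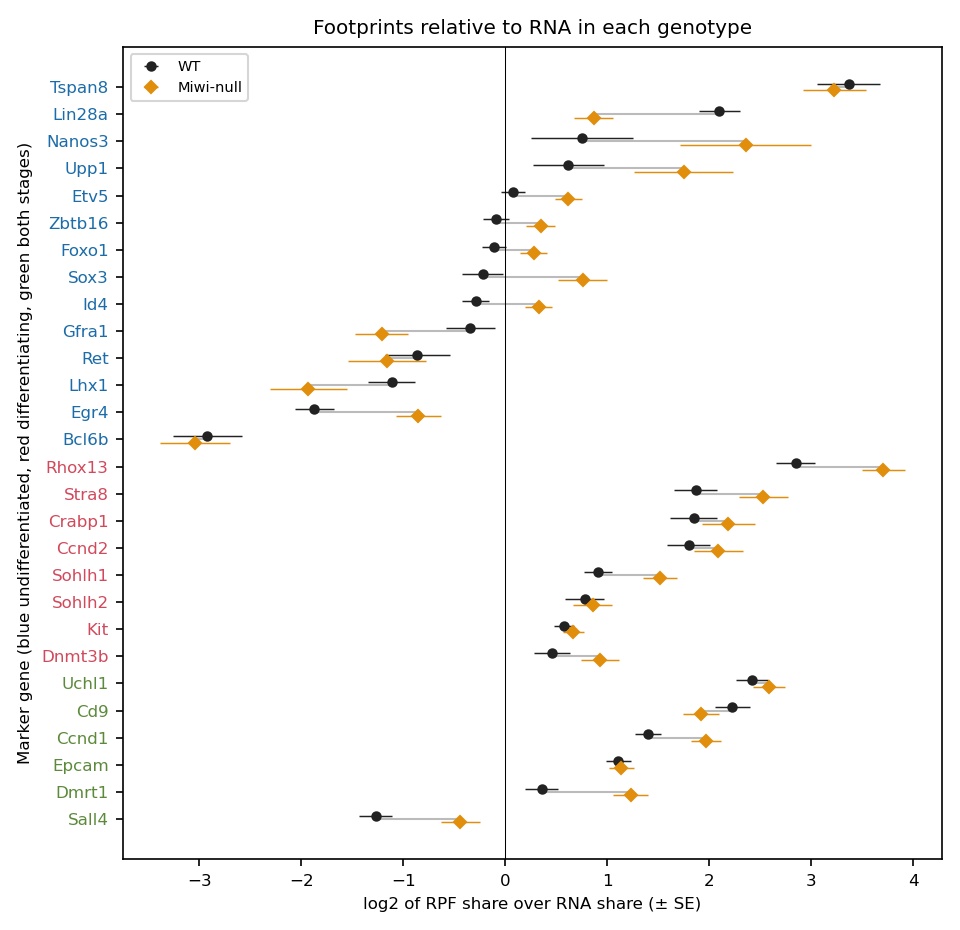
Log2 ratio of footprint share to RNA share (horizontal axis) for the 28 tested markers (vertical, by stage) in WT (circles) and in Miwi-null (diamonds), with SE bars. The 8 differentiating markers all lie above 0, whereas undifferentiated markers run from Bcl6b at -2.92 to Tspan8 at 3.37 in WT.

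Rhox13 had 6.04 and 6.11 CPM in WT RNA and 37.2 and 50.6 CPM in WT footprints, a log2 ratio of 2.85 ± 0.19 (adjusted p = 1.86e-06). Stra8 and Crabp1 had ratios of 1.87 ± 0.21 and 1.85 ± 0.23. At the other end, Bcl6b had 3.76 and 4.24 CPM in WT RNA but 0.679 and 0.284 CPM in WT footprints, a log2 ratio of -2.92 ± 0.34 (adjusted p = 5.53e-05). Egr4 had a ratio of -1.87 ± 0.19, Sall4 of -1.27 ± 0.16 and Lhx1 of -1.11 ± 0.23. The 2 undifferentiated markers called higher were Lin28a (log2 ratio 2.1 ± 0.2) and Tspan8, with 1.54 and 2.08 CPM in WT RNA and 15.9 and 21.8 CPM in WT footprints (log2 ratio 3.37 ± 0.31, adjusted p = 1.34e-05).

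These ratios moved with coding length over all genes. The median WT ratio ran from 0.85 in the shortest of the 10 bins to -1.08 in the longest. With the length trend removed, the medians in WT were 1.05 for the differentiating and -0.15 for the undifferentiated markers, and no count of calls is given for that scale.

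**Figure D4:**
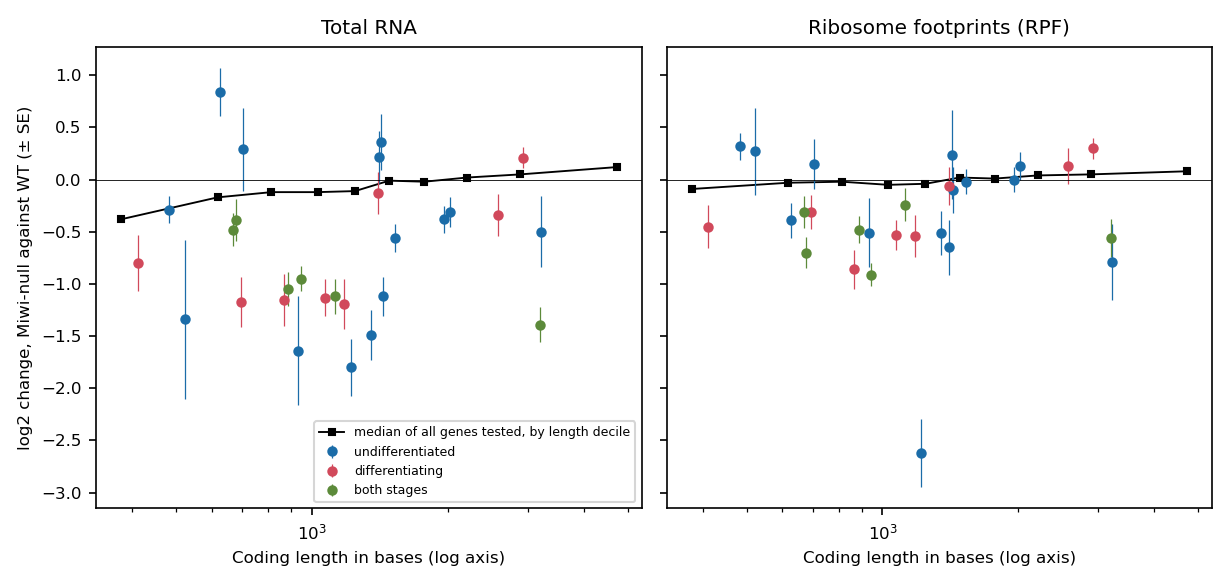
Log2 change, Miwi-null against WT, of the 28 tested markers against coding length (log axis), in RNA and in footprints, with the median of all genes in each of 10 length bins as a line. Most markers lie below the line in RNA, and Lhx1 lies furthest below it in both assays.

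Genes around the markers in the same pathways were counted from lists that hold none of the 32. Of 19 other spermatogonial genes tested, 2 rose and 3 fell in RNA (median -0.25). Mycn, a proto-oncogene of progenitors, was at 9.0 and 6.33 CPM in WT and 3.22 and 2.35 CPM in Miwi-null (log2 change -1.45 ± 0.26, adjusted p = 0.00274), and Pou3f1, a GDNF-induced factor, had a log2 change of -1.44 ± 0.46 (adjusted p = 0.0371). Ddx4, a germ-cell helicase that spermatocytes also hold, rose from 266 and 329 CPM to 538 and 532 CPM (log2 change 0.85 ± 0.16, adjusted p = 0.00342).

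Of 17 retinoic acid genes tested, 9 fell and 1 rose in RNA (median -0.38), and in footprints 6 fell and 4 rose. Cyp26a1, an enzyme that degrades retinoic acid, was at 2.08 and 2.01 CPM in WT RNA and 0.383 and 0.523 CPM in Miwi-null RNA (log2 change -2.17 ± 0.46, adjusted p = 0.00679). Rdh10, which makes its aldehyde precursor, was at 20.4 and 19.4 CPM in WT and 6.66 and 6.36 CPM in Miwi-null (log2 change -1.61 ± 0.14, adjusted p = 7.87e-05). The receptor Rxra had a log2 change of -1.15 ± 0.12 (adjusted p = 0.000192).

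Of 18 GDNF and KIT signalling genes, 6 fell and 2 rose in RNA (median -0.38). Pik3cd, a phosphoinositide 3-kinase subunit, rose (log2 change 1.46 ± 0.12, adjusted p = 5.17e-05), and the MAP kinase phosphatase Dusp6 fell (log2 change -0.8 ± 0.2, adjusted p = 0.0137). Of 9 niche ligands tested, 2 fell in RNA, Igf1 (log2 change -1.26 ± 0.24, adjusted p = 0.0043) and Csf1 (log2 change -0.5 ± 0.16, adjusted p = 0.0385).

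Of 17 meiotic entry genes, 7 rose and 1 fell in RNA (median 0.21). In RNA this was a different balance from the markers, although the difference between the lists was not tested. In footprints 2 of the 17 rose and 2 fell, with a median of -0.2, beside -0.35 for the 28 markers. In TE, 4 were called lower and 0 higher (median -0.35). Gm4969, which encodes the STRA8 partner MEIOSIN, was the 1 that fell in RNA, from 24.2 and 22.4 CPM to 11.4 and 9.68 CPM (log2 change -1.14 ± 0.15, adjusted p = 0.000517). Sycp2, of the chromosome axis, rose in RNA from 163 and 194 CPM to 466 and 454 CPM (log2 change 1.37 ± 0.11, adjusted p = 5.21e-05).

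Markers of other testis cells moved beside the spermatogonial ones. Of 18 Sertoli markers, which include genes of the cells that nurse spermatogonia, 9 were called in RNA, each lower. The summed level of the 18 went from 2170 and 2100 CPM in WT to 1530 and 1540 CPM in Miwi-null. Clu, the highest of them, made up 1310 and 1250 CPM of the WT sums and 980 and 992 CPM of the Miwi-null sums. Summed RNA of the 10 elongating spermatid markers went from 17000 and 16600 CPM to 2180 and 2180 CPM, and 7 of 8 peritubular myoid markers fell. Summed RNA of the 11 Leydig markers went from 1360 and 1330 CPM to 2430 and 2430 CPM. In RNA, 3 of 8 endothelial markers fell, 2 of 10 macrophage markers rose and 1 fell, 2 of 10 spermatocyte markers rose and 4 fell, and 5 of 10 round spermatid markers fell. The spermatocyte list includes Piwil1, the gene removed, so the fall of that gene was fixed by the genotype. Each gene on these lists had enough fragments to be tested. For the members themselves, summed RNA went from 139 and 128 to 94.5 and 103 CPM in the undifferentiated set, from 112 and 103 to 87.0 and 85.2 CPM in the differentiating set and from 153 and 159 to 87.2 and 90.1 CPM in the shared set. Footprints did not follow RNA in every list. Summed Sertoli footprints were 5860 and 5690 CPM in WT and 5340 and 5480 CPM in Miwi-null, with 2 markers higher and 5 lower. Of the 8 peritubular myoid markers 2 fell in footprints, whereas all 10 elongating spermatid markers did. Summed footprints of the undifferentiated members were 138 and 133 CPM in WT and 136 and 140 CPM in Miwi-null. The part of these cell types in the marker results was not tested.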

How the data were processed

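RNA and footprint libraries (2 per genotype and assay) were read from per-transcript tables, 1 for each replicate number. Fragment counts were deposited by the authors as whole numbers, and FPKM columns beside them, also deposited by the authors, were used only to check the transcript rows. Log2 TE changes were taken from the authors' merged table, as deposited, with no replicate error. Tools listed in the submitters' processing notes, without roles, are STAR 2.5.0a, Bowtie 1.2.2 and cutadapt 2.5, with the build GRCm38; how fragments were counted and whether strand was used is not given in the sources used here. Because overlapping transcripts each received the fragment, library size was summed over 1 transcript per gene. Groups came from the sample titles.

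Counts were fitted with edgeR 4.0.16 (R 4.3.3): TMM scaling, filterByExpr (min.count 10, min.total.count 15), robust quasi-likelihood fit of 4 group means over 8 libraries, 4 residual degrees of freedom, and Benjamini-Hochberg adjustment over 16051 genes. SE was the log2 change over the root of F. CPM used TMM-scaled library sizes. DESeq2 1.42.0, other scalings, filters, leave-one-out fits and a replicate block were alternatives, and the scripts were tested on simulated data. All 32 markers were named. From each other list at most the 4 largest called changes per contrast were eligible. From cell type lists only counts, sums and medians were given, besides Clu and Piwil1. The markers and all lists were chosen with earlier results of these data known.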

Additional observations from a re-analysis of the deposited data

Results flagged for a closer look

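The footprint response of Lin28a to genotype differed from its RNA response in the interaction test. Its TE log2 change was -1.23 ± 0.28 (SE, adjusted p = 0.0236 with edgeR). Over 14 alternative fits that give a TE test the change ran from -1.48 to -1.03 and the adjusted p from 0.016 to 0.101, and 8 of the 14 kept the call.

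The footprint response of Dmrt1 differed from its RNA response in the opposite direction, with a TE log2 change of 0.87 ± 0.23 (adjusted p = 0.0386 with edgeR). Over the same 14 fits it ran from 0.58 to 1.07, with adjusted p from 0.0151 to 0.16, and 5 of the 14 kept the call.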

How the results depend on the processing

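No called member reversed its direction under any alternative run. The 17 RNA calls ranged from 11 to 17 with 1 library left out. The 7 footprint calls became 4 with DESeq2 and 4 in a fit of the 4 footprint libraries alone, and 2 to 9 with 1 library left out. The 2 TE calls became 1 with no TMM, 1 with TMM within each assay, 1 with counts summed over transcripts, and 0 to 5 with 1 library left out. A replicate block gave 14 RNA, 5 footprint and 0 TE calls; the numbers share no stated animal or batch, and their deviations correlated at r = -0.004 in RNA and -0.808 in footprints. A further alternative, added after seeing the data, put a block on the footprint libraries alone, with their numbers crossed. The RNA libraries then carried no replicate term. This alternative called 18 members in footprints (16 lower, 2 higher) and 11 in TE (9 higher, 2 lower). That block called 8183 of all 16051 genes in footprints and 6540 in TE. The median RNA change of differentiating markers (-0.96) was -0.87 with no TMM, -0.81 with the length trend removed and -1.02 to -0.8 with 1 library left out. The median footprint change of undifferentiated markers (-0.06) was -0.21 with no filter, -0.35 with the shared markers included and -0.25 without members also known from somatic cells, and -0.17 to -0.04 with 1 library left out. The median footprint change of differentiating markers (-0.38) was -0.38 to -0.2 with 1 library left out. The median TE change of undifferentiated markers (0.41) was 0.27 with no TMM, 0.34 with TMM within each assay, 0.28 with no filter, 0.45 with the length trend removed, 0.16 without members also known from somatic cells, 0.38 with members of at least 1 CPM, and 0.32 to 0.54 with 1 library left out. With no TMM the all-gene median shifted from -0.07 to 0.02 in RNA and from 0.04 to -0.10 in TE, and the higher share of TE calls from 49.3% to 29.2%. Over all genes, 5985 RNA calls became 9040 in the 4 libraries alone and 3242 to 7090 with 1 left out, 4073 footprint calls became 1985 alone, and 2395 TE calls became 1237 with the block and 622 to 3635 with 1 left out. The causes were not tested. Depth limits Nanos2, Pax7, Neurog3 and Eomes, which had at most 8 fragments in any library.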
